A study of Mus musculus with 18 samples.

Results

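Epithelial cells of the embryonic lung are held together by E-cadherin at adherens junctions and sealed by claudins and occludin at tight junctions. The levels of 10 genes of this epithelial adhesion and tight junction programme were followed in mouse lungs with an epithelial deletion of Rptor, Tfam or Cox10. The genes are Cdh1, Epcam, Cldn3, Cldn4, Cldn6, Cldn7, Cldn18, Ocln, Esrp1 and Spint1. They were taken by their symbols, and all 10 were found among the 23416 genes of each of the 3 tables.

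Whole lungs were taken from mouse embryos at 14.5 dpc (days after coitus), and their RNA was sequenced. Deficient lungs had the genotype Rptorf/f; ShhCre/+, Tfamf/f; ShhCre/+ or Cox10f/f; ShhCre/+, and the littermate controls had Rptorf/+; ShhCre/+, Tfamf/+; ShhCre/+ or Cox10f/+; ShhCre/+. There were 3 samples in each of the 6 groups, 18 in all. Each line, meaning the deficient lungs and their own controls, was deposited in a table of its own. By these genotypes, which the labels and the methods of the study share, every lung carried Cre in 1 allele of Shh and at least 1 floxed allele. A legend in the study names the controls by ShhCre/+ alone. No group without Cre was compared. Shh is expressed in the lung epithelium and not in the mesenchyme, which is why the recombination is epithelial. Rptor encodes a subunit of mTOR complex 1 (mTORC1), a kinase complex that promotes growth. The Tfam product packages mitochondrial DNA and starts its transcription. The Cox10 product makes a heme that cytochrome c oxidase, the last complex of the respiratory chain, requires.

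Normalised read counts, meaning counts of reads after division by the sample's size factor, summed to between 27727202 and 29611064 per sample. Genes above 0 numbered 17671 to 17910. The targeted genes, counted over the whole gene in the whole lung, did not pass the threshold in their own line. The log2 fold change was -0.066 for Rptor, -0.12 for Tfam and -0.0055 for Cox10, and these values therefore do not check the labels. All 8 markers listed for lung epithelium were above the filter in every line. So were the listed markers of mesenchyme, endothelium, mesothelium and macrophages, whose RNA is part of a whole-lung sample. The third Cox10-deficient sample stood apart from the other 2 for the 10 genes, with a median of -0.076 against its controls on the log2 scale beside -0.56 and -0.41, and calls that are gained or lost without it are named. The study describes its repeats as biological in general terms, but no label ties a sample to an embryo or a litter, and the p-values measure only the spread between these samples.

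E-cadherin, encoded by Cdh1, binds to itself between neighbouring cells. EpCAM is a second epithelial adhesion molecule and is known to bind and stabilise claudin-7. Claudins form the strands of the tight junction and set which ions pass between cells, and claudin-18 is known for its high level in the alveolar epithelium. Occludin is a further membrane protein of the tight junction. ESRP1 is an RNA-binding protein that directs epithelial splicing, and SPINT1 inhibits the membrane protease matriptase, which acts on epithelial surfaces.

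The 10 genes fell together in Rptor-deficient lungs, but by unequal amounts. In the limma fit over all genes of this line, 10 of 10 passed the threshold (adjusted p below 0.05) with lower values, while 18.2% of all 14937 genes tested were lower. The log2 fold changes ran from -1.89 for Cdh1 to -0.46 for Ocln, with a median of -1.01 beside 0.0082 over all genes tested. In Tfam-deficient lungs 5 of 10 passed, all lower, namely Cdh1, Cldn18, Cldn4, Esrp1 and Cldn6, against 2.63% of all genes. Their log2 fold changes lay between -0.55 and -0.29, and the median over the 10 was -0.17. In Cox10-deficient lungs 1 of 10 passed, Cldn4, against 0.335% of all genes. The median over the 10 was -0.33 there, and 10 of 10 estimates were below 0. Cldn4 was the member that passed in all 3 lines. When 1 sample at a time was left out, 10 members passed in each Rptor fit, 2 to 5 in the Tfam fits and 0 to 6 in the Cox10 fits. In a whole lung, fewer epithelial cells and less RNA of a gene per epithelial cell cannot be told apart.

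**Figure D1:**
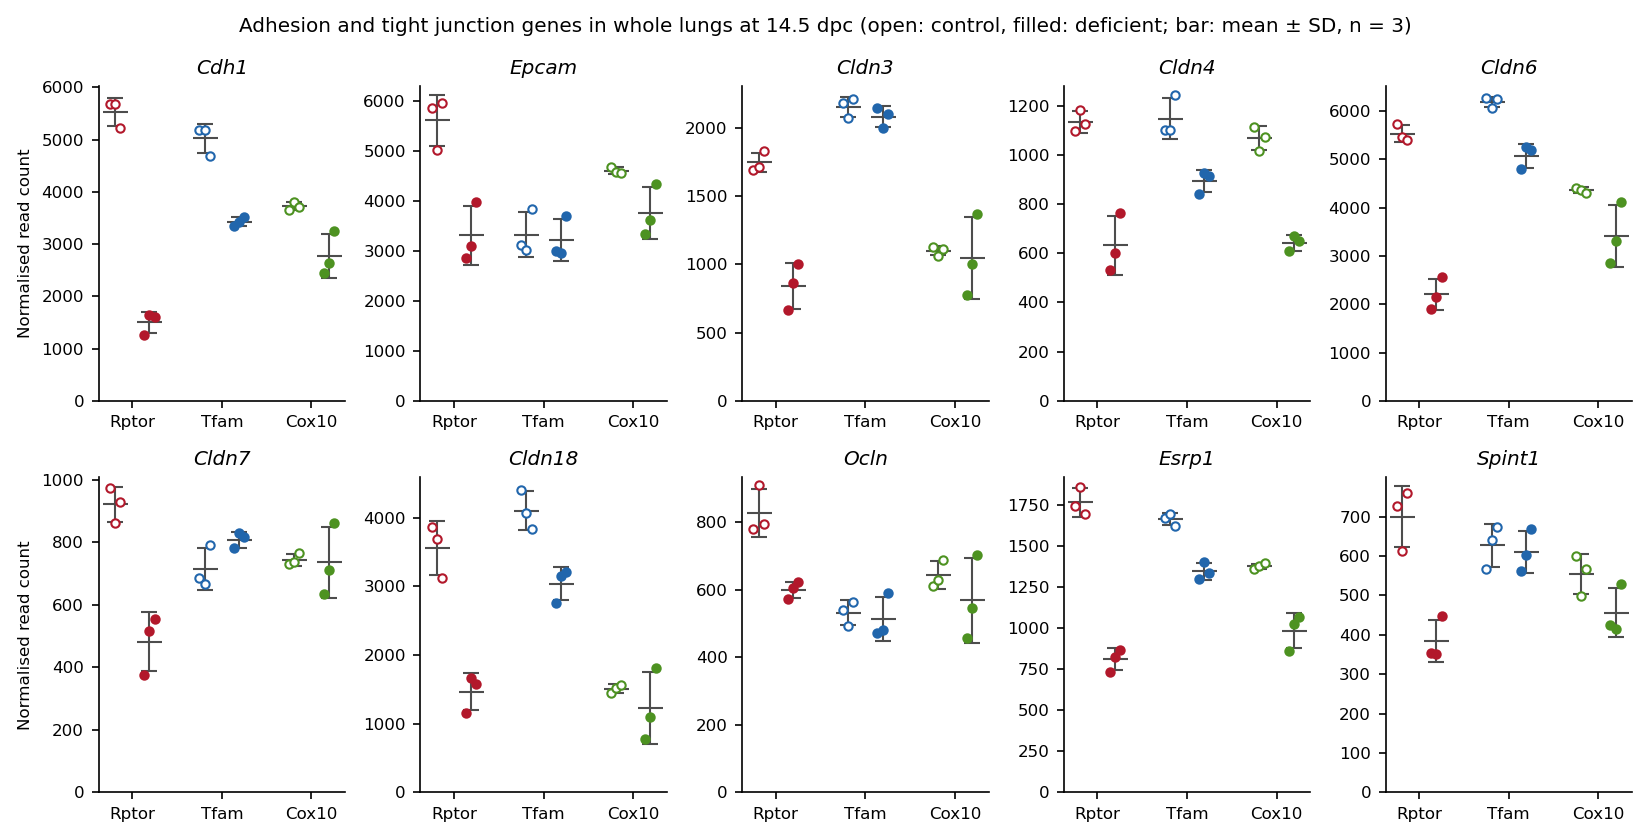
Normalised read count (vertical axis, linear, from 0) of each of the 10 genes in the control (open) and deficient (filled) lungs of the Rptor, Tfam and Cox10 lines. Points are single samples and bars the mean ± SD of 3 samples. All 3 Rptor-deficient samples lie below all 3 controls for every gene, and the 3 Cox10-deficient samples are spread widely for Cldn18, from 775 to 1805.

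Of the 10 genes, Cdh1 fell most in Rptor-deficient lungs. Its normalised read counts were 5678, 5688 and 5215 in the Rptor controls and 1267, 1639 and 1599.8 in the deficient samples. The deficient mean was 72.8% below the control mean, a log2 fold change of -1.89 with SE 0.10 (limma adjusted p = 2.16e-05). It ranked 110 among the 14937 genes tested when these were ordered from the largest fall. Tfam controls had 5188, 5182 and 4693, and the deficient samples had 3347, 3419 and 3513. The groups did not overlap, and the log2 fold change of -0.55 with SE 0.059 passed the threshold (limma adjusted p = 0.000372). For Cox10 the counts were 3651, 3806 and 3711 in controls and 2441, 2632 and 3255 in deficient samples. These groups did not overlap either, but the third deficient sample lay close to the controls. The log2 fold change of -0.43 with SE 0.10 did not pass (limma adjusted p = 0.139). Without that sample it was -0.55, with an adjusted p of 0.00215 by limma, and with all 18 samples in 1 fit the -0.43 passed as well (limma adjusted p = 0.0221).

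Epcam, the other adhesion gene, fell less. Controls had 5868, 5022 and 5964, and Rptor-deficient lungs had 2858, 3101 and 3980.3. The log2 fold change was -0.77 with SE 0.12, a mean 41.0% lower (limma adjusted p = 0.00199). For Tfam, the values were 3125, 3027 and 3844 in controls and 3001, 2958 and 3709.7 in deficient lungs. In both groups replicate 3 was the highest, and the groups overlapped. The estimate was -0.048 with SE 0.10, with a 95% interval of -0.28 to 0.18, and the -0.55 of Cdh1 in this line lies outside it. Cox10 controls had 4689, 4579 and 4566 and deficient lungs 3342, 3620.1 and 4351, and the groups did not overlap. The estimate of -0.30 with SE 0.090 did not pass (limma adjusted p = 0.260), whereas without the third deficient sample it was -0.41 and passed (adjusted p = 0.00656 by limma).

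Among the claudins, Cldn6 and Cldn18 followed Cdh1 most closely in Rptor-deficient lungs. Cldn6 had 5737, 5462 and 5402 in controls and 1905, 2154 and 2556 in deficient samples, a log2 fold change of -1.34 with SE 0.10 (limma adjusted p = 6.69e-05). Cldn18 had 3864, 3687 and 3119 in controls and 1155, 1659.7 and 1581 in deficient samples, a change of -1.29 with SE 0.14 (limma adjusted p = 0.000392). The deficient samples lay far below the controls for both genes. Both fell in the Tfam line too. Cldn6 went from 6265, 6068 and 6241 in controls to 4796, 5254 and 5189.6 (-0.29 with SE 0.057, limma adjusted p = 0.0155), and Cldn18 from 4400.1, 4066 and 3837 to 2762, 3151 and 3204 (-0.43 with SE 0.074, limma adjusted p = 0.00665). No deficient sample reached its controls. The call of Cldn6 was lost without control replicate 1 or deficient replicate 1 (limma adjusted p = 0.0768 and 0.0783), and both calls were lost when all 18 samples shared 1 estimate of the spread (0.181 for Cldn6 and 0.327 for Cldn18).

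Cldn18 was widely spread in the Cox10 line. Its controls had 1443, 1524 and 1568, and the deficient samples had 775, 1097 and 1805. The first deficient sample was the lowest, and the third was above every control. The estimate of -0.39 with SE 0.26 did not pass (limma adjusted p = 0.534), with a 95% interval of -0.98 to 0.21. Without the third sample it was -0.71 (limma adjusted p = 0.0388). Cldn6 had 4417, 4373 and 4312 in controls and 2850.1, 3301 and 4114 in deficient lungs. The 2 groups did not overlap, and the estimate of -0.37 with SE 0.12 did not pass (limma adjusted p = 0.285). It was -0.51 without the third sample, and passed (limma adjusted p = 0.00941).

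Some of the genes are neighbours in the genome. Positions are those of the RefSeq annotation of GRCm38, the same build as the mm10 named in the submitters' processing notes. Cldn4 lies at chr5:134945123-134946934 on the minus strand and Cldn3 at chr5:134986214-134987476 on the plus strand, each in a single exon, with start sites 39280 bases apart. Cldn6 lies at chr17:23679348-23682446, 138 bases from Cldn9, and Cldn7 at chr11:69964779-69967886. Cdh1 lies at chr8:106603350-106670247, Epcam at chr17:87635979-87651127, Cldn18 at chr9:99690796-99717267, Ocln at chr13:100496504-100552718, Esrp1 at chr4:11331933-11386783 and Spint1 at chr2:119237360-119249535.

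Closely related genes could share reads. The longest run of bases that a member claudin shared with another claudin transcript was 37, between Cldn6 and Cldn9, and 35 between Cldn3 and Cldn4. A read lying wholly within such a run would match both genes, and such reads were not counted. Cldn3 overlaps an antisense RNA, Wbscr25, over 40 exon bases, and Esrp1 overlaps Gm26663 over 127. Whether counting used strand is not given in the sources used here, and reads in these bases cannot be told apart.

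The 250 bases before the start sites were read for 8 of the 10 genes, in 11 windows, from RefSeq (GRCm38.p6). Cdh1 and Esrp1 were not among them. The sequences of Cldn4, Cldn3 and Epcam are shown. The first pair are neighbours, of which Cldn4 alone passed in the Tfam and Cox10 lines, and they were not tested against each other. Epcam was chosen because it fell far less than Cdh1 in the Rptor line. Capitals mark CACCTG or its reverse complement CAGGTG, an E-box known to be bound by the repressors of the Snail and Zeb families. The windows lie at chr5:134946935-134947184 (minus strand), chr5:134985964-134986213 (plus strand) and chr17:87635729-87635978 (plus strand), each 5′ to 3′.
Cldn4: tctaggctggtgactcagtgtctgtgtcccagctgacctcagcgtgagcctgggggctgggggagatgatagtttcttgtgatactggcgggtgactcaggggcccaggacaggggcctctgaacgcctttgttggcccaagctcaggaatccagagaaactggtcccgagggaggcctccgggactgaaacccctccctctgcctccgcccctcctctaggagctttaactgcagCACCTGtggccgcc
Cldn3: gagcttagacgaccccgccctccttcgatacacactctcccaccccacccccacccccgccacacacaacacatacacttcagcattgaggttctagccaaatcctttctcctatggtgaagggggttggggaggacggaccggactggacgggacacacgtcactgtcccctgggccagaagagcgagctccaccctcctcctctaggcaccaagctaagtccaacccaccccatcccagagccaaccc
Epcam: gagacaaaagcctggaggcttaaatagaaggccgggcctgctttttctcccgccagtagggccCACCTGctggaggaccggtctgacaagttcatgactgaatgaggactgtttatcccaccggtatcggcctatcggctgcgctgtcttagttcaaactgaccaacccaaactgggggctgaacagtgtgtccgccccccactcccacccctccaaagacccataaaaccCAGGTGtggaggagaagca
The E-box was present in 5 of the 11 windows, those of Cldn4, Cldn6, Cldn7, Epcam and Ocln, and in 17.22% of all 32851 windows of this length. In Cldn4 it began at position -14 relative to the start site, and in Epcam at positions -187 and -19. The genes with the motif included Ocln and Cldn6, which stood near opposite ends of the order of falls in the Rptor line. The forkhead motif TGTTTAC, the grainyhead motif AACCNGTT and the TATA box TATAAA, each searched on both strands and none of them contained in another, were in 0 of 11 member windows and in 3.17%, 1.79% and 12.37% of all windows. A match describes letters only, and no binding was measured.

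Cldn3 and Cldn4, a pair of claudins of many epithelia, both fell in the Rptor line, and Cldn4 alone of the pair passed in the other lines. In the Rptor line Cldn3 went from 1695, 1717 and 1830.2 to 667, 861 and 1003 (-1.07 with SE 0.13, limma adjusted p = 0.000697), and Cldn4 from 1095, 1183 and 1126 to 530.3, 603 and 764 (-0.86 with SE 0.12, limma adjusted p = 0.00140). Neither gene had overlapping groups. Tfam controls had 2184, 2073 and 2211 for Cldn3 and the deficient lungs 2148, 2002 and 2101, which overlapped. The estimate was -0.049 with SE 0.058, with a 95% interval of -0.18 to 0.078. Cldn4 had 1099, 1100.5 and 1243 in the Tfam controls and 841, 925 and 913 in the deficient lungs, without overlap. Its log2 fold change of -0.36 with SE 0.073 passed the threshold (limma adjusted p = 0.0184), but not without deficient replicate 1 or 3 (0.0782 and 0.0584) or with all 18 samples in 1 fit (0.0616).

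In the Cox10 line Cldn3 had 1126, 1063 and 1114 in controls and 774, 1001 and 1372 in deficient samples, which lay on both sides of the controls (-0.11 with SE 0.18, limma adjusted p = 0.808). Cldn4 had 1114, 1018 and 1074 in controls and 608, 672 and 651 in deficient samples. These 3 samples lay close together, the third included, and all were well below the lowest control. The log2 fold change was -0.73 with SE 0.067, a mean 39.8% lower, with a limma adjusted p of 0.00667. The size held at -0.77 to -0.69 when any 1 sample was left out. The call was lost when any 1 of the 3 controls was left out (limma adjusted p of 0.0667, 0.0505 and 0.101), and kept without any 1 of the deficient samples.

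Cldn7 passed in the Rptor line and in neither of the others. Controls had 973, 862 and 928 and Rptor-deficient lungs 376, 515 and 554, a log2 fold change of -0.95 with SE 0.14 (limma adjusted p = 0.00146). For Tfam, the deficient samples, at 780.1, 829.9 and 815, were on the high side of the controls, at 687, 667 and 791. The estimate of 0.18 with SE 0.080 was the single positive one among the 30 estimates, and did not pass (limma adjusted p = 0.273). Cox10 controls had 729.5, 735 and 767 and deficient lungs 636, 709.9 and 861, with overlap. The estimate there was -0.027 with SE 0.11, with a 95% interval of -0.28 to 0.22.

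Ocln fell least of the 10 in Rptor-deficient lungs. Its values were 781, 909 and 794 in controls and 574, 604 and 622 in deficient samples, and the groups did not overlap. The mean was 27.5% lower, a log2 fold change of -0.46 with SE 0.084 (limma adjusted p = 0.00400). Tfam controls had 540.5, 492 and 565 and deficient lungs 472, 480.4 and 589, and the estimate was -0.056 with SE 0.10 (limma adjusted p = 0.830). For Cox10 the values were 611, 628 and 689.6 and 456, 547 and 704, with the third deficient sample above every control (-0.20 with SE 0.15, limma adjusted p = 0.576). Neither of these lines separated the groups.

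For Esrp1, the splicing regulator, the groups were apart in all 3 lines. In the Rptor line it went from 1740.2, 1860.2 and 1694 to 735, 827 and 868 (-1.13 with SE 0.079, limma adjusted p = 5.75e-05). Tfam controls had 1669, 1696 and 1621 and deficient lungs 1300.2, 1405 and 1332 (-0.30 with SE 0.059, limma adjusted p = 0.0137). Cox10 controls had 1361, 1377 and 1393 and deficient lungs 861, 1027 and 1068. The Tfam call was lost without control replicate 1 or without deficient replicate 1 or 3 (limma adjusted p = 0.0640, 0.0673 and 0.0648). The Cox10 estimate of -0.49 with SE 0.083 did not pass (limma adjusted p = 0.0608), and it passed with all 18 samples in 1 fit (limma adjusted p = 0.00142) and without the third deficient sample (-0.55, limma adjusted p = 0.0147).

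Spint1, the protease inhibitor, passed in the Rptor line. It went from 727, 612 and 759.9 to 355, 353 and 447 (-0.86 with SE 0.12, limma adjusted p = 0.00136). For Tfam, it had 568, 639.7 and 674 in controls and 563, 603 and 668 in deficient lungs (-0.038 with SE 0.091, limma adjusted p = 0.875). Cox10 controls had 599, 498 and 567 and deficient lungs 425, 415 and 528 (-0.29 with SE 0.12, limma adjusted p = 0.365). Only the Rptor groups did not overlap.

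**Figure D2:**
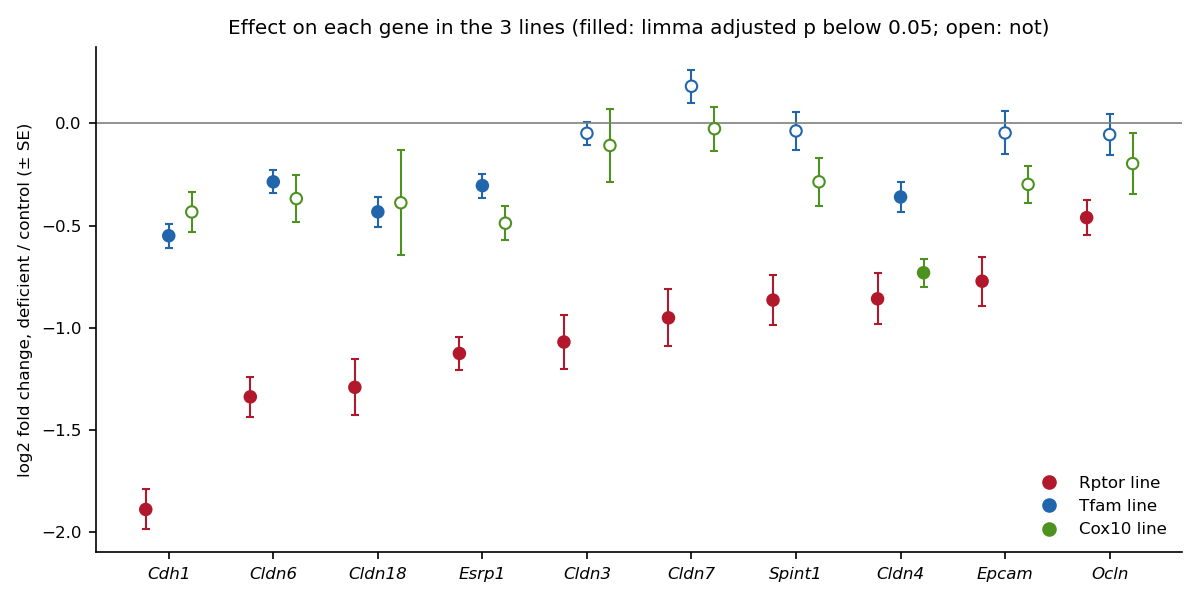
Log2 fold change of the deficient over the control lungs (vertical axis, ± SE of the limma fit, 3 against 3 samples) for the 10 genes, ordered by the effect in the Rptor line, with red for Rptor, blue for Tfam and green for Cox10. Filled points passed an adjusted p below 0.05. Cdh1 is lowest in the Rptor line at -1.89, and Cldn4 is the gene with a filled point in all 3 lines.

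The samples were also compared without a model. All 3 deficient samples were below all 3 controls for 10 of 10 genes in the Rptor line (26% of all genes tested), for 5 in the Tfam line (11.8%) and for 5 in the Cox10 line (10.8%). The 5 of the Tfam line were those that passed the test. For Cox10, they were Cdh1, Epcam, Cldn4, Cldn6 and Esrp1, of which Cldn4 alone passed the test.

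Each deficient sample was also set against the mean of its 3 controls. The samples of a line share that mean, so that a place repeated in all of them is a description and no sign of stability. Cdh1 was lowest and Ocln highest in all 3 Rptor-deficient samples, and Cldn6 and Cldn18 took the places next to Cdh1 in all 3. For Tfam, Cdh1 was lowest, followed by Cldn18 and Cldn4, and Cldn7 was highest, in all 3 samples. The places between these changed from sample to sample in both lines. The Cox10 line held no single order. Cldn18 was lowest in the first deficient sample and Cldn4 in the other 2. The median of the 10 genes was -0.56, -0.41 and -0.076 in these 3 samples, and 6 of 10 genes were below the control mean in the third.

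Whether single genes fell by a different amount than Cdh1 was asked by subtracting the log2 value of Cdh1 from that of each gene in the same sample. The study used E-cadherin to mark all epithelial cells, and Cdh1 was chosen as the reference for that reason. Rptor-deficient lungs had all 9 other genes higher relative to Cdh1 (limma adjusted p from 2.73e-08 to 0.000878). Of all genes tested, 98.2% were called higher on this scale, so that the count itself does not set the members apart. The differences ran from 0.55 (SE 0.14) for Cldn6 and 0.60 (SE 0.13) for Cldn18 to 1.12 (SE 0.15) for Epcam and 1.43 (SE 0.15) for Ocln.

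Of the 9 genes, 7 were higher relative to Cdh1 in Tfam-deficient lungs, where 86.7% of all genes were. Cldn7 stood at 0.73 (SE 0.11), and Epcam, Cldn3, Ocln and Spint1 at 0.49 to 0.51. Cldn18 at 0.12 (SE 0.073) and Cldn4 at 0.19 (SE 0.10) did not pass, with limma adjusted p of 0.148 and 0.0836. Without control replicate 3 Cldn4 passed (0.30, limma adjusted p = 0.00198), and without deficient replicate 2 Esrp1 was lost (0.21, limma adjusted p = 0.0538). For Cox10, 1 of 9 passed, Cldn7, at 0.41 (SE 0.13, limma adjusted p = 0.0200), against 59.9% of all genes. Its log2 ratio to Cdh1 was -2.32, -2.37 and -2.27 in the controls and -1.94, -1.89 and -1.92 in the deficient samples. The groups did not overlap in this ratio, and the size stayed at 0.38 to 0.43 with any 1 sample left out. The call was lost in 4 of these 6 fits, without any 1 control sample or without deficient replicate 2, where limma adjusted p was 0.0798 and above.

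Other Cox10 calls on this scale appeared in other fits. With all 18 samples in 1 fit Cldn3 passed, at 0.33 (limma adjusted p = 0.0214), and so did Cldn4, at -0.30 (limma adjusted p = 0.0407). Without deficient replicate 3, 4 of 9 members passed, which were Cldn7, Cldn3 (0.23, limma adjusted p = 0.0391), Epcam (0.15, limma adjusted p = 0.0157) and Cldn4, the last being lower relative to Cdh1 (-0.19, limma adjusted p = 0.0444). Without that sample the estimates of Cldn18 and Esrp1 changed sign, to -0.16 and 0.0045, and did not pass. Without deficient replicate 1, Cldn3 passed as well (0.44, limma adjusted p = 0.0362).

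Over the 3 lines together, labels were permuted within lines in an exact permutation test with 8000 arrangements, the smallest p of which is 0.00025. Epcam, Cldn3, Cldn7 and Ocln reached that p, with mean differences from Cdh1 of 0.58, 0.55, 0.69 and 0.72 on the log2 scale. For these 4 genes, as for Spint1, Cldn6 and Cldn18, the difference was positive in all 3 lines. Spint1 had 0.56 (exact permutation p = 0.00075), Cldn6 had 0.29 (exact permutation p = 0.0005), Esrp1 had 0.32 (exact permutation p = 0.0085) and Cldn18 had 0.25 (exact permutation p = 0.028). The Esrp1 difference was positive for Rptor and Tfam and -0.055 in the Cox10 line. For Cldn4 the difference of 0.31 had an exact permutation p of 0.073, and its sign differed between lines, since it was -0.30 in the Cox10 line. Without the third Cox10-deficient sample Cldn4 had 0.34 (exact permutation p = 0.0488) and Cldn18 had 0.19 (exact permutation p = 0.0683). These were 9 tests that share the Cdh1 values, and the p-values are not adjusted. With labels swapped only within the replicate pairs of the Rptor line, which was added after the data were seen, there were 3200 arrangements and the smallest p was 0.000625. Epcam, Cldn3, Cldn7 and Ocln reached it, Cldn18 was lost (exact permutation p = 0.07), and Cldn6, Esrp1 and Spint1 still passed (exact permutation p = 0.00125, 0.0213 and 0.00188). Over the 14547 genes other than Cdh1 tested in all lines the median of the same mean difference was 0.96, and 9 of 9 members lay below it. A positive difference from Cdh1 was therefore not particular to the members.

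With Epcam in place of Cdh1 as the reference, the statement turns around for several genes, because Epcam fell less than most. In the Rptor line Cdh1, Cldn6 and Cldn18 were lower relative to Epcam, at -1.12, -0.57 and -0.52 (limma adjusted p of 0.0069 for Cldn6 and 0.0129 for Cldn18). On that scale 1.48% of all genes were called lower and 84.1% higher. For Tfam, 0 of 9 members passed, with 0.983% of all genes called lower and 0.864% higher. The estimates were -0.50 for Cdh1 (SE 0.18, limma adjusted p = 0.186), -0.39 for Cldn18 and -0.31 for Cldn4. The difference between Cdh1 and Epcam is the same 0.50 that passed with Cdh1 as the reference, where its SE was 0.12 (limma adjusted p = 0.00162). Its SE and adjusted p depend on the reference, since both draw on the values of all genes, and the lost call does not show that the pair changed alike. Of the 9 members in the Cox10 line, Cldn4 passed, with a lower value (-0.43, limma adjusted p = 0.0419), against 0.375% of all genes called lower and 15.7% higher. The order of the genes within a line does not depend on the reference, but the sign of a single difference does.

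**Figure D3:**
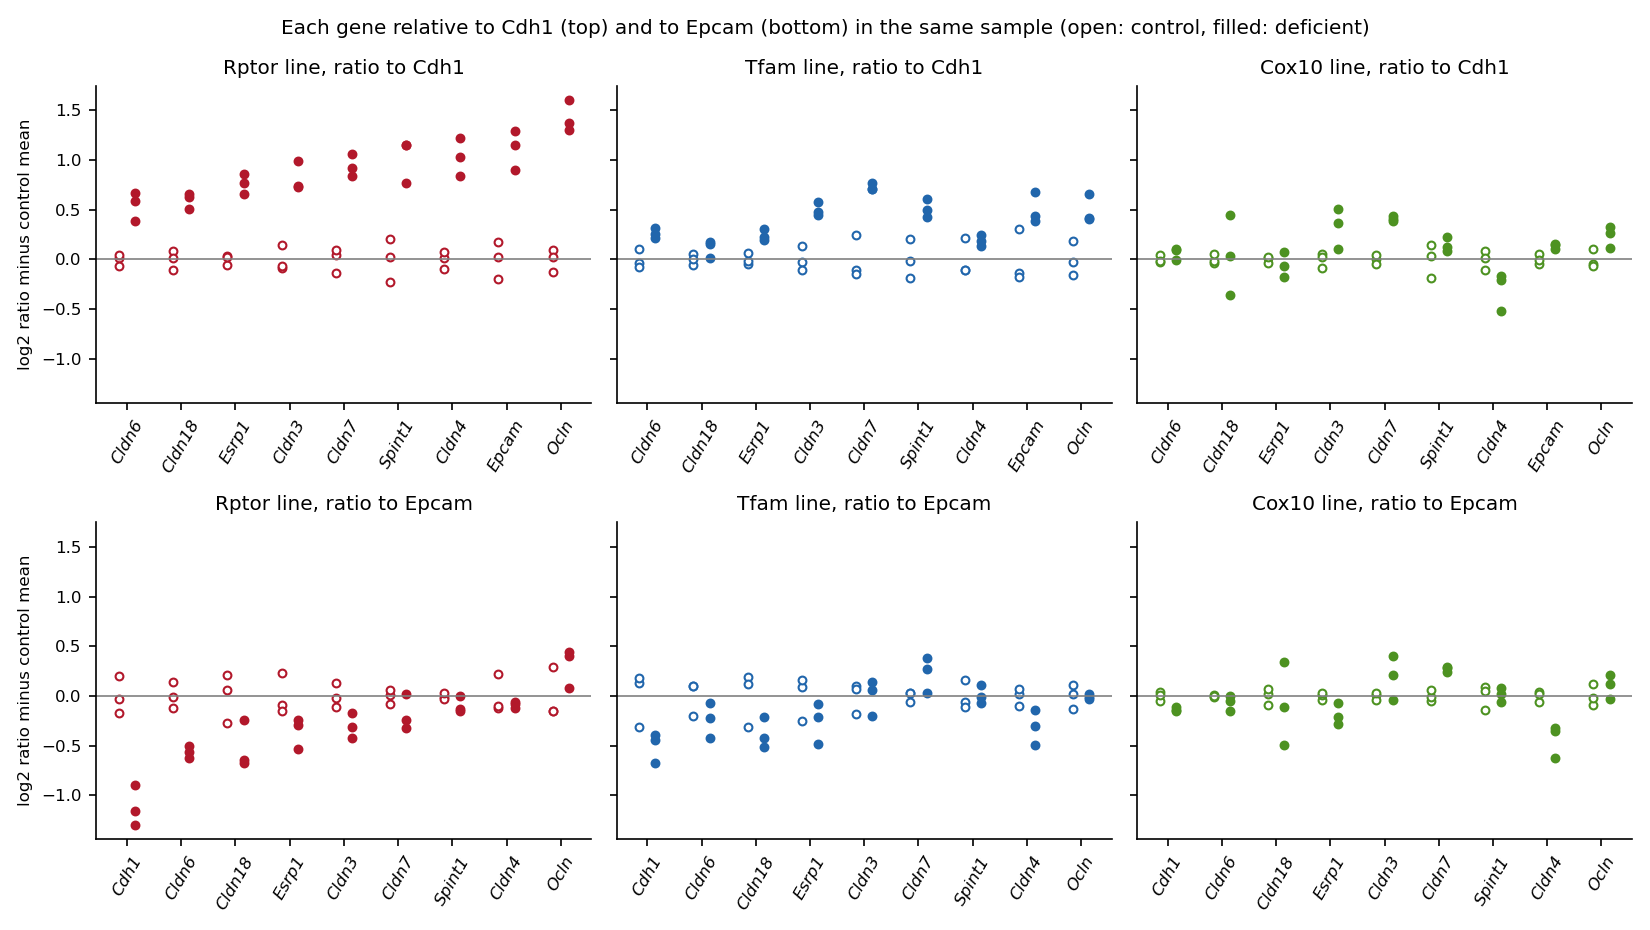
Log2 ratio of each gene to Cdh1 (top) and to Epcam (bottom) in the same sample, minus the mean of the line's controls (vertical axis), for control (open) and deficient (filled) samples of the 3 lines, 1 point per sample. In the Rptor line every deficient point lies above 0 in the top row, and the ratio of Cdh1 to Epcam lies far below 0 in the bottom row, at a mean of -1.12.

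The effects were then compared between lines in a model of all 18 samples. The Rptor effect was more negative than the Tfam effect for 8 of 10 genes (6.35% of the 14548 genes tested in all lines). The difference was -1.34 (SE 0.14, limma adjusted p = 1.02e-05) for Cdh1 and -1.13 (SE 0.17, limma adjusted p = 0.000664) for Cldn7. Ocln and Cldn18 did not pass, with -0.41 (SE 0.18) and -0.86 (SE 0.28). Against the Cox10 effect it was more negative for 6 of 10 genes (4.21% of all genes), namely Cdh1, Cldn3, Cldn6, Cldn7, Esrp1 and Spint1. The least firm of these calls were those of Cldn4 against Tfam and of Spint1 against Cox10, each of which held in 4 of 12 fits with 1 sample left out. Spint1 was also lost with no filter and with scaling to library totals (limma adjusted p = 0.0545 and 0.0528). With the replicate number as a block in each of the 3 lines, Cldn18 passed in both comparisons (limma adjusted p = 0.0372 and 0.0400). Epcam passed against Cox10 in that fit (limma adjusted p = 0.0288). The numbers were taken to pair samples in the Rptor line only, so that these gains do not rest on that pairing alone. Against Cox10, Epcam also passed without Rptor-deficient replicate 3 (-0.61, limma adjusted p = 0.0324) and Cldn18 without Cox10-deficient replicate 1 (-1.19, limma adjusted p = 0.00373).

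For Cldn4 the Rptor and Cox10 effects were not told apart. The difference was -0.13 (SE 0.14, limma adjusted p = 0.634), with a 95% interval of -0.42 to 0.17. The same interval was -1.74 to -1.17 for Cdh1. Between the Tfam and Cox10 effects 0 of 10 genes differed by limma's adjusted p (0.055% of all genes), and 1 had an unadjusted p below 0.05, Cldn4, at 0.37 (SE 0.14) with an unadjusted limma p of 0.0168. For the other 9 genes the estimates of this difference lay between -0.12 and 0.25.

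Per kilobase of exon, Cldn6 was the most abundant of the 10 in the controls of every line, at 3215 ± 104, 3598 ± 62.4 and 2538 ± 30.5 normalised read counts per kb (mean ± SD, n = 3) for Rptor, Tfam and Cox10. Ocln was the lowest, at 196 ± 16.7, 126 ± 8.80 and 152 ± 9.74. Epcam was in the second place and Cldn3 in the third in the Rptor and Cox10 controls. In the Tfam controls Cldn3 came before Epcam, but the ranges of the pair overlapped there. Cdh1 was in the fourth place in every line. Esrp1 and Spint1 took the places before Ocln, and their ranges overlapped in the Rptor and Cox10 lines. All other neighbours in the order had ranges that did not overlap. Exon lengths were taken from the union of exons in GENCODE M21.

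Genes of the same structures were read from a list of 65 junction, polarity, matriptase and epithelial regulator genes, of which 64 were in the tables. For Rptor, 39 were lower and 1 was higher of 62 tested, with a median log2 fold change of -0.53. For Tfam, 16 were lower and 0 higher of 63 (median -0.16), and in the Cox10 line 4 were lower and 0 higher of 60 (median -0.16). Of all genes, 18.2%, 2.63% and 0.335% were lower in the Rptor, Tfam and Cox10 lines, and 16.6%, 2.03% and 0.141% were higher. The counts by role that follow stand beside the same shares. Leaving out single samples moved the Tfam count to between 8 and 15 and the Cox10 count to between 0 and 15. The lowest Tfam count came without the first control, and the highest Cox10 count without the third deficient sample.

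Among 9 other claudins, 3 fell in Rptor-deficient lungs (18.2% of all genes). Cldn10, a claudin that forms ion channels, had 333 ± 74.4 in controls and 26.9 ± 6.66 in deficient lungs (mean ± SD, n = 3), the largest fall of the list at -3.58 with SE 0.22 (limma adjusted p = 3.31e-05). It fell in the Tfam line as well, with -0.99 with SE 0.14, from 319 ± 22.6 to 162 ± 31.8 (limma adjusted p = 0.00230). Cldn23 fell from 26.2 ± 5.14 to 11.2 ± 3.06 there (-1.17 with SE 0.29, limma adjusted p = 0.0482), at counts near the filter. For Cox10, 0 of 7 other claudins tested passed (0.335% of all genes were lower), and Cldn10 had -0.88 with SE 0.16 (limma adjusted p = 0.0748).

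Of 10 genes for membrane and plaque proteins of the tight junction, 5 fell in the Rptor line (18.2% of all genes), and the median of the 10 was -0.20. Of 9 adherens junction genes 6 fell, with a median of -0.26 beside the -1.89 of Cdh1, whose product the catenins bind. For Cox10, the 1 gene of this group that passed was Cdh3, encoding P-cadherin, which fell from 1932 ± 52.0 to 1349.8 ± 130.1 (-0.52 with SE 0.073, limma adjusted p = 0.0350). The polarity genes had 6 of 11 lower in the Rptor line (18.2% of all genes) and 2 of 11 in the Tfam line (2.63%).

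Of the desmosome genes, whose proteins anchor keratin filaments between cells, 6 of 8 fell in the Rptor line (18.2% of all genes), with a median of -1.10. Dsc2, encoding the desmosomal cadherin desmocollin 2, was the 1 gene of the whole list that rose. It had 94.0 ± 20.7 in controls and 353 ± 60.9 in Rptor-deficient lungs, a rise of 1.91 with SE 0.19 (limma adjusted p = 0.000253). In the Tfam and Cox10 lines Dsc2 had estimates of 0.55 with SE 0.15 and 0.26 with SE 0.19, which did not pass (limma adjusted p = 0.0705 and 0.567).

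Of the genes related to Spint1, all 5 tested fell in the Rptor line (18.2% of all genes). Tmprss2, a membrane serine protease, passed in all 3 lines. Its log2 fold change was -2.17 with SE 0.12 for Rptor, -0.44 with SE 0.10 for Tfam and -0.82 with SE 0.10 for Cox10, with limma adjusted p of 2.45e-05, 0.0264 and 0.0253. The control and deficient means in the Cox10 line were 441 ± 4.50 and 251 ± 29.0.

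Among splicing and transcription factors of epithelium, 8 of 10 fell for Rptor, 4 for Tfam and 2 for Cox10 (18.2%, 2.63% and 0.335% of all genes). Esrp2, the paralogue of Esrp1, had -1.27 with SE 0.10, -0.63 with SE 0.065 and -0.66 with SE 0.081 for Rptor, Tfam and Cox10 (limma adjusted p = 0.000118, 0.000273 and 0.0253). Grhl2, a transcription factor known to activate Cdh1 and claudin genes, had -0.95 with SE 0.089, -0.39 with SE 0.070 and -0.54 with SE 0.069 (limma adjusted p = 0.000213, 0.00881 and 0.0265). Together with Tmprss2 these were the 3 genes of the list that passed in all lines. Elf5 and Ehf, 2 factors of the ETS family, had the largest falls of this group in the Rptor line, at -3.35 with SE 0.34 and -2.52 with SE 0.35 (limma adjusted p = 0.000291 and 0.00114). Ehf also fell in the Tfam line (-0.94 with SE 0.20, limma adjusted p = 0.0221).

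**Figure D4:**
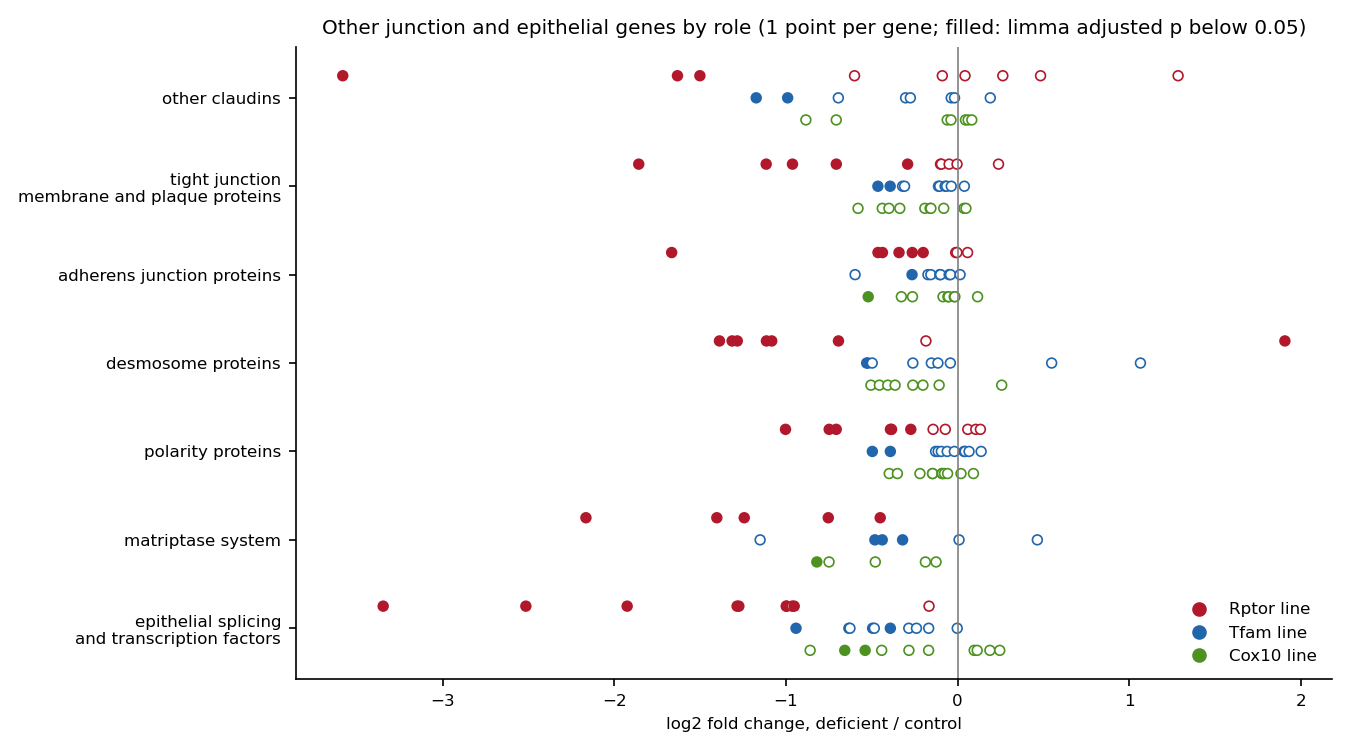
Log2 fold change of the deficient over the control lungs (horizontal axis) for the listed genes outside the 10 members, grouped by role (vertical axis), with 1 point per gene tested, in red for the Rptor line, blue for Tfam and green for Cox10. Filled points passed a limma adjusted p below 0.05. In the Rptor line 39 genes are filled on the left and 1, Dsc2, on the right at 1.91.

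Markers of whole cell types moved beside these changes. For Rptor, 7 of 8 epithelial markers fell (18.2% of all genes), with a median of -0.96 close to the -1.01 of the members. The summed normalised count of these markers was 15220 to 15446 in controls and 7025 to 8893 in deficient samples. For Tfam, 2 of 8 fell beside 2.63% of all genes (sum 17038 to 18143 in controls, 14204 to 15457 in deficient samples). In the Cox10 line 2 of 8 fell beside 0.335% (11263 to 11904 and 7948 to 10282). Foxa1, an epithelial transcription factor, fell in each line, with -1.79 with SE 0.15, -0.65 with SE 0.065 and -0.66 with SE 0.076 (limma adjusted p = 0.000151, 0.000235 and 0.0184). Sums of epithelial markers did not overlap between groups in any line.

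Many non-epithelial markers rose in the same Rptor-deficient samples. Beside 16.6% of all genes higher, these were 8 of 15 mesenchymal genes, 5 of 7 endothelial, 4 of 5 mesothelial and 5 of 5 macrophage genes, with 0 of these falling. Their summed counts were 251700 to 283408 in controls and 448304 to 479899 in deficient samples for mesenchyme, 32514 to 34202 and 40596 to 47033 for endothelium, 3579 to 4997 and 7268 to 7893 for mesothelium, and 1718 to 1866 and 3028 to 3460 for macrophages. Col1a1, a fibrillar collagen gene of mesenchyme, had 1.14 with SE 0.11 (limma adjusted p = 0.000247), Tie1 of endothelium 0.49 with SE 0.057, Lrrn4 of mesothelium 1.12 with SE 0.12 and Csf1r of macrophages 0.93 with SE 0.072, and the last 3 passed as well. No gene of these 4 lists was at 0 in all samples. In the Tfam and Cox10 lines 0 of these genes passed in either direction. Of all genes, 2.03% and 0.141% were higher there, and 2.63% and 0.335% lower. The medians of the mesenchymal, endothelial, mesothelial and macrophage lists were 0.047, 0.080, 0.20 and 0.27 for Tfam. They were 0.12, 0.28, -0.011 and 0.19 for Cox10. The part of the cell make-up in the falls of the members was not tested.

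Other listed markers moved in both directions in the Rptor line, where 18.2% of all genes were lower and 16.6% higher. Of the 5 smooth muscle genes 4 fell, with Cnn1 at -1.66 with SE 0.45 (limma adjusted p = 0.0211), while Acta2 rose by 0.47 with SE 0.15 (limma adjusted p = 0.0410). Of the 7 distal tip genes 3 rose and 3 fell, from -1.86 with SE 0.41 for the surfactant gene Sftpc to 0.63 with SE 0.072 for Bmp4 (limma adjusted p = 0.00932 and 0.000493). Ret, listed for neurons, fell for Rptor (-2.26 with SE 0.17) and for Tfam (-1.59 with SE 0.13) (limma adjusted p = 6.77e-05 and 6.83e-05). The other neural markers tested passed in no line. Afp, listed for other epithelium, rose by 1.44 with SE 0.44 in the Rptor line (limma adjusted p = 0.0323), from 78.1 ± 13.4 to 255 ± 199.6. The other genes of this list tested there did not pass, namely Alb (-0.081), Krt5 (0.072) and Tg (0.27). Of 3 erythroid genes tested 0 passed in any line, and 1 erythroid gene was at 0 in every Rptor sample. For Cox10, 0 genes of the smooth muscle, distal tip, neuronal and other epithelial lists passed, beside 0.335% of all genes lower and 0.141% higher. The medians of these lists were -0.90, -0.23, -0.26 and -0.49 there, and Ret had -1.66 with SE 0.37 (limma adjusted p = 0.133). The smooth muscle median was -0.48 for Tfam, so that the missing Cox10 calls do not show a smaller change. For Tfam, where 2.63% of all genes were lower and 2.03% higher, 4 of 5 smooth muscle genes fell, with Myh11 at -0.84 with SE 0.069 (limma adjusted p = 6.34e-05). The distal tip genes held 3 rises and 1 fall there, with Etv4 at 0.71 with SE 0.069 and Etv5 at -0.55 with SE 0.085 (limma adjusted p = 0.000193 and 0.00359).

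The genes most like the members over the 18 samples were found by correlating the log2 value of each gene, centred on the controls of its line, with the mean over the 10 members. Among 12935 genes outside the set with a mean of at least 50, the highest Pearson r were 0.992 for Akr1c19, 0.982 for Ap1m2, 0.982 for Kcnk1, 0.982 for Krt8 and 0.979 for Ndnf. For Akr1c19 the changes were -3.46, -0.62 and -1.13 on the log2 scale for Rptor, Tfam and Cox10. Krt8, a keratin of simple epithelia, had -1.35, -0.29 and -0.47. Between pairs of members the r over the same 18 samples ran from 0.645 for Cldn4 and Cldn7 to 0.985 for Cdh1 and Cldn6. These correlations are a description, as all points share libraries and the large step of the Rptor line.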

How the data were processed

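RNA-Seq of whole lungs at 14.5 dpc was deposited as 3 tables, 1 for each line, with 6 samples each. Per the labels, RNA was extracted from snap-frozen lungs with an RNeasy kit. The submitters' processing notes name Trim Galore, HISAT2, featureCounts, DESeq2 and the mm10 build, with no versions. The deposited values are a signal: read counts per gene that the authors divided by a size factor for each sample. Each was a whole multiple of 1 step per sample, within a tolerance of 0.01. No count model was run on these scaled values. The authors also deposited 9 columns of their own comparisons, holding log2 fold changes, p-values and adjusted p-values, which were not used. From each of them 23416 genes were read, and 4 entries whose symbols had turned into dates were left out.

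A gene was tested in a line where at least 3 of its 6 samples had a value of at least 10. Values were fitted as log2(value + 1) with limma 3.58.1 in R 4.3.3 (lmFit and eBayes with trend), 3 deficient against 3 control samples, 2-sided, with Benjamini-Hochberg adjustment over all genes tested and a threshold of 0.05. On this scale, log2(value + 1), fold changes of low genes come out too small. Effects were compared between lines in 1 model of 18 samples with 6 groups, over the 14548 genes tested in all lines. The tables were normalised separately, so that levels were compared within tables. For differences relative to Cdh1, the log2 value of Cdh1 was subtracted in each sample before the fit. The exact permutation test, 2-sided, swapped labels within lines and, as an alternative, within the replicate pairs of the Rptor line. With 3 against 3 samples in 1 line such a test cannot go below 0.1. The depth limits the precision of all values, and the size-factor scaling makes each value relative to the rest of its library, in which other cell types are included. Tables were prepared with Python 3.11.15 and pandas 2.3.3, and the fits were tested on simulated data.

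Replicate numbers in the sample titles were checked for pairing. Deviations of same-numbered samples from their group means correlated at 0.221, 0.330 and 0.259 in the Rptor line, all above 0.1, and the numbers were taken to pair these samples. Positions and upstream sequences are from RefSeq (GRCm38 and GRCm38.p6), and exon lengths and overlaps from GENCODE M21. Members matched by symbol in 10 of 10 cases, and 64 of 65 junction genes were found, some under older symbols.

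The 10 members, the gene lists and the tests were chosen with earlier results of these data known. From the junction list, the genes named were those that passed in all 3 lines in 1 direction and, in each line, the 4 largest rises and the 4 largest falls past it. From each marker list the largest rise and the largest fall past the threshold in a line were named. Krt8 and the other genes most like the members were the 5 with the highest correlation. Dsc2 in the Tfam and Cox10 lines and Cldn10 in the Cox10 line are given for comparison.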

Additional observations from a re-analysis of the deposited data

Results flagged for a closer look

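The effects of 2 lines under the same contrast differed by limma's test of the difference for 8 members between the Rptor and Tfam lines, with 6.35% of all genes called in this direction. These differences (Rptor effect minus Tfam effect, log2) were -1.34 for Cdh1, -1.13 for Cldn7, -1.05 for Cldn6, -1.02 for Cldn3, -0.83 for Spint1, -0.82 for Esrp1, -0.72 for Epcam and -0.50 for Cldn4. The limma adjusted p ran from 1.02e-05 for Cdh1 to 0.0304 for Cldn4, and the call of Cldn4 held in 4 of the 12 fits that left out 1 sample each. It was lost without Rptor control replicate 2 or 3, Rptor-deficient replicate 1 or 2, Tfam control replicate 1 or 2, or Tfam-deficient replicate 2 or 3, with estimates from -0.50 to -0.38.

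Between the Rptor and Cox10 lines 6 members differed, with 4.21% of all genes called in this direction. The differences (Rptor effect minus Cox10 effect, log2) were -1.45 for Cdh1, -0.97 for Cldn6, -0.96 for Cldn3, -0.92 for Cldn7, -0.64 for Esrp1 and -0.58 for Spint1. The limma adjusted p ran from 8.69e-06 for Cdh1 to 0.0464 for Spint1, and the call of Spint1 held in 4 of 12 such fits. It was lost without Rptor control replicate 1 or 3, Rptor-deficient replicate 1 or 2, any of the 3 Cox10 controls, or Cox10-deficient replicate 3, with estimates from -0.64 to -0.47. The changes of the marker sums were unlike between the lines, but cell make-up was not measured, and its part was not tested in either set.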

How the results depend on the processing

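In the Rptor line all 10 members passed with lower values under every alternative run, namely no filter, a mean of at least 50, a pseudocount of 0.1 or 5, trimmed-mean scaling, library totals, the replicate block, all 18 samples in 1 fit, an adjusted p below 0.01 and the left-out samples. With all 18 samples in 1 fit, 2 members passed for Tfam and 3 for Cox10 (Cdh1 and Esrp1 beside Cldn4), and the junction genes past the threshold numbered 9 for either line. At an adjusted p below 0.01 the members of the Tfam line numbered 2, and the junction genes 9 for Tfam and 0 for Cox10. The number of members past the threshold relative to Cdh1 in the Cox10 line was 2 with a mean of at least 50, 3 with all 18 samples and 0 at an adjusted p below 0.01. The counting test planned as a further alternative (edgeR) was not run. The values are whole multiples of a step, but most steps lie so near 1 that the check for recovered reads did not accept them. The cause of these changes was not tested.

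With 1 sample left out, 2 to 5 members passed for Tfam and 0 to 6 for Cox10. The junction genes ranged from 8 to 15 (Tfam) and from 0 to 15 (Cox10), and the members past the threshold relative to Cdh1 in the Cox10 line from 0 to 4. In the Tfam line Cldn4 was lost without deficient replicate 1 or 3 (limma adjusted p = 0.0782 and 0.0584), Cldn6 without control replicate 1 or deficient replicate 1 (0.0768 and 0.0783), and Esrp1 without control replicate 1 or deficient replicate 1 or 3 (0.0640, 0.0673 and 0.0648). In the Cox10 line 6 members passed without deficient replicate 3. In the permutation over the 3 lines, leaving out 1 sample gave 0.276 to 0.344 for Cldn4, which passed without Cox10-deficient replicate 3 (exact permutation p = 0.0488), and 0.185 to 0.319 for Cldn18, which was lost without it (exact permutation p = 0.0683).

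Estimates near 0 changed sign in such fits. In the Tfam line the range was -0.15 to 0.060 for Epcam, -0.11 to 0.020 for Spint1 and -0.16 to 0.0012 for Ocln. In the Cox10 line it was -0.32 to 0.090 for Cldn3 and -0.15 to 0.072 for Cldn7, and relative to Cdh1 -0.16 to 0.24 for Cldn18 and -0.12 to 0.0045 for Esrp1. For the Tfam effect minus the Cox10 effect it was -0.33 to 0.28 for Cldn18, -0.14 to 0.27 for Cldn3, -0.042 to 0.22 for Cldn6, -0.0063 to 0.31 for Ocln and -0.20 to 0.0040 for Cdh1.

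With Epcam as the reference in place of Cdh1, 3 members passed for Rptor and 0 for Tfam, where Cdh1 relative to Epcam kept its size (-0.50) with a limma adjusted p of 0.186. The differences turned negative in the Rptor line for Cldn3 (-0.30), Cldn4 (-0.086), Cldn6 (-0.57), Cldn7 (-0.18), Cldn18 (-0.52), Esrp1 (-0.35) and Spint1 (-0.092). They did in the Tfam line for Cldn3 (-0.0017), Cldn4 (-0.31), Cldn6 (-0.24), Cldn18 (-0.39), Ocln (-0.0084) and Esrp1 (-0.26), and in the Cox10 line for Cldn6 (-0.069) and Cldn18 (-0.090). Over the 3 lines the exact permutation gave -0.036 for Cldn3 (p = 0.673), -0.277 for Cldn4 (p = 0.0025), -0.291 for Cldn6 (p = 0.00325), -0.331 for Cldn18 (p = 0.0193), -0.267 for Esrp1 (p = 0.00275), -0.023 for Spint1 (p = 0.601), 0.107 for Cldn7 (p = 0.165) and 0.135 for Ocln (p = 0.105).

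In the permutation over the 3 lines, the replicate block in the Rptor line, added after the data were seen, ended the call of Cldn18 (0.253, exact permutation p = 0.07) and no other. The replicate block in the limma fits left 10, 5 and 1 members past the threshold in the Rptor, Tfam and Cox10 lines and changed no other call on a member than the 3 effect differences given in the report. Same-numbered samples correlated at -0.312, -0.207 and 0.151 for Tfam and at 0.447, 0.202 and 0.0487 in the Cox10 line, where the numbers were taken as names only. The difference of Spint1 between the Rptor and Cox10 effects was lost with no filter (limma adjusted p = 0.0545) and with library totals (0.0528).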
